A study of Homo sapiens with 8 samples.

Results

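HCT-8/FU, a subline of the human colon cancer line HCT-8 that resists 5-fluorouracil (5-FU), was compared with parental HCT-8 by RNA sequencing. The comparison used 4 of the 8 samples of the series, chosen by their labels: HCT-8 replicates 1 and 2 and HCT-8/FU replicates 1 and 2, all in unconditioned medium. HCT-8 is an ileocecal adenocarcinoma line, and the labels call HCT-8/FU resistant to 5-FU; as a single resistant line it cannot stand for resistant cells at large. The other 4 samples were HCT-8 cells in medium conditioned for 48 h by HCT-8 or by HCT-8/FU. They shared the fit that estimates the spread, and they enter below as the range of all 6 HCT-8 libraries. Nothing in the labels says that replicates were separate cultures, so the p-values measure the spread between replicate samples of all 4 groups, which may be technical.

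5-FU is a uracil analogue that cells turn into fluorinated nucleotides. One of these blocks thymidylate synthase, the enzyme that makes dTMP with a folate cofactor, and others enter RNA and DNA. Thymidylate shortage stalls replication forks and brings in the replication checkpoint, mismatch repair and homologous recombination. Cells also meet stress through the integrated stress response, in which the factor ATF4 turns on amino acid supply genes and the factor DDIT3 (CHOP), and through the unfolded protein response, which fills the endoplasmic reticulum (ER) with chaperones. The data describe the expression levels of these systems in each line at harvest. Whether 5-FU was then in the medium of HCT-8/FU is not stated in the labels. In bulk RNA, a smaller share of cells in a given state and less RNA per cell cannot be told apart.

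Promoters of 6 genes, each chosen because it holds a motif known from its group, show these motifs in ER chaperone, integrated stress response, replication and mitosis genes. The 200 bases before the RefSeq start site (GRCh38.p14) are given 5′ to 3′ on the gene's own strand, in lower case with the motif in capitals. In HSPA5 (chr9:125241344-125241543, minus strand) and XBP1 (chr22:28800570-28800769, minus strand) the capitals mark the ER stress element, CCAAT and CCACG separated by 9 bases. In ASNS (chr7:97872409-97872608, minus strand) they mark the amino acid response element TGATGNAA, and in MCM6 (chr2:135876444-135876643, minus strand) the E2F motif TTTGGCGC. In TOP2A (chr17:40417897-40418096, minus strand) and MKI67 (chr10:128126424-128126623, minus strand) they mark the cell cycle homology region TTTGAA, and both strands were searched for every motif.
HSPA5: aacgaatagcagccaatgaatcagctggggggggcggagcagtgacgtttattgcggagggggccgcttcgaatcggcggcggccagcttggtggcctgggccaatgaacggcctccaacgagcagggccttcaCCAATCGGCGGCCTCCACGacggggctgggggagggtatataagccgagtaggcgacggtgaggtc
XBP1: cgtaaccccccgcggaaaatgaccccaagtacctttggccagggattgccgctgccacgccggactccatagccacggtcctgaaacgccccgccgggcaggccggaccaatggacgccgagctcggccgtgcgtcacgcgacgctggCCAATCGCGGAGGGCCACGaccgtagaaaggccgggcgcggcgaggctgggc
ASNS: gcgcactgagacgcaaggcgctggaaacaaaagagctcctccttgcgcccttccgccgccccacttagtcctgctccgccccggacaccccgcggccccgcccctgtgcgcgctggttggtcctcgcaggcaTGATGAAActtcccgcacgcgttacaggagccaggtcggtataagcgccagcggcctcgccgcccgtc
MCM6: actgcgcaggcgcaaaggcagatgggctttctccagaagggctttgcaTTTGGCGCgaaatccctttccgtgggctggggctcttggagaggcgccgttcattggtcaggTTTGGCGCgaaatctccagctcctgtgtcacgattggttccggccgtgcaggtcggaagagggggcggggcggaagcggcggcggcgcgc
TOP2A: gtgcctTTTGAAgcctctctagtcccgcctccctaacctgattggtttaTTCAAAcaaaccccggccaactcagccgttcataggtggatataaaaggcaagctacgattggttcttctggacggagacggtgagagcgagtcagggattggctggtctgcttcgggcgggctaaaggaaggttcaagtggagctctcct
MKI67: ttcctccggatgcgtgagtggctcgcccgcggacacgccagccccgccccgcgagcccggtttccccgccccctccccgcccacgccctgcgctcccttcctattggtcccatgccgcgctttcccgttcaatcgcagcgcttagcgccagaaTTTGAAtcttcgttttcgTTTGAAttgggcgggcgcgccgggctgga
Shares of promoters holding each motif were counted over 250 bases before to 50 bases after the start, for members with a promoter in the RefSeq table. The ER stress element stood in 6 of 20 promoters of ER chaperone genes (30.0%), against 0.0806% of all 27305 promoters. TGATGNAA stood in 12 of 35 promoters of integrated stress response genes (34.3%, against 3.67%). TTTGAA stood in 34 of 49 promoters of mitosis genes (69.4%, against 15.4%), and TTTGGCGC in 8 of 45 promoters of replication genes (17.8%, against 0.659%). These matches describe the sequences, and binding was not measured.

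The 4 libraries held 8055150 and 34881349 counts on genes in HCT-8 and 28444413 and 5804124 in HCT-8/FU. Between 3.72% and 25.1% of records were not aligned, and the highest shares lay in HCT-8 replicate 1 and HCT-8/FU replicate 2, 1 library of each group. Of 10 colon epithelium markers, 9 reached a library-size-scaled count (CPM) of 1 in at least 1 library, and their summed level was 9397 and 9582 CPM in HCT-8 and 10176 and 10338 CPM in HCT-8/FU. Summed fibroblast markers lay between 12.9 and 18.6 CPM with COL1A2, COL3A1 and PDGFRA at 0, and summed leukocyte markers at or below 1.76 CPM with PTPRC and CD3E at 0.

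A gene was called differentially expressed (DE) at a false discovery rate (FDR) of at most 0.05 and a log2 fold change of at least 0.58 in size. Of 20305 genes tested, 2677 were higher in HCT-8/FU (13.2%) and 1648 were lower (8.12%). The change followed the base composition of the gene. Genes in the lowest of 10 equal GC bins (at most 39.0% GC) had a median log2 fold change of 0.72, with 931 higher and 18 lower, whereas genes in the highest bin had a median of −0.23, with 79 higher and 296 lower. Deviations from a gene's mean level correlated with its GC content at a Spearman rho of −0.488 and −0.452 in the HCT-8/FU libraries, and of 0.0517 and 0.215 in the HCT-8 libraries. These are values across genes, which are not independent replicates, and whether the trend comes from the cells or from the libraries cannot be told apart here. Correcting each library for gene GC content and length left 1444 higher (7.27%) and 1600 lower (8.06%) of 19857 genes, so that the share of higher genes among DE genes went from 61.9% to 47.4%. A core of 1244 higher (6.26%) and 1057 lower genes (5.32%) was DE in the same direction both ways, and 0 genes were DE in opposite directions. The correction removed 1392 higher and 574 lower calls and added 200 higher and 543 lower ones. Of the core genes, 829 lay above all 6 HCT-8 libraries in both HCT-8/FU libraries, and 826 lay below them.

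**Figure D1:**
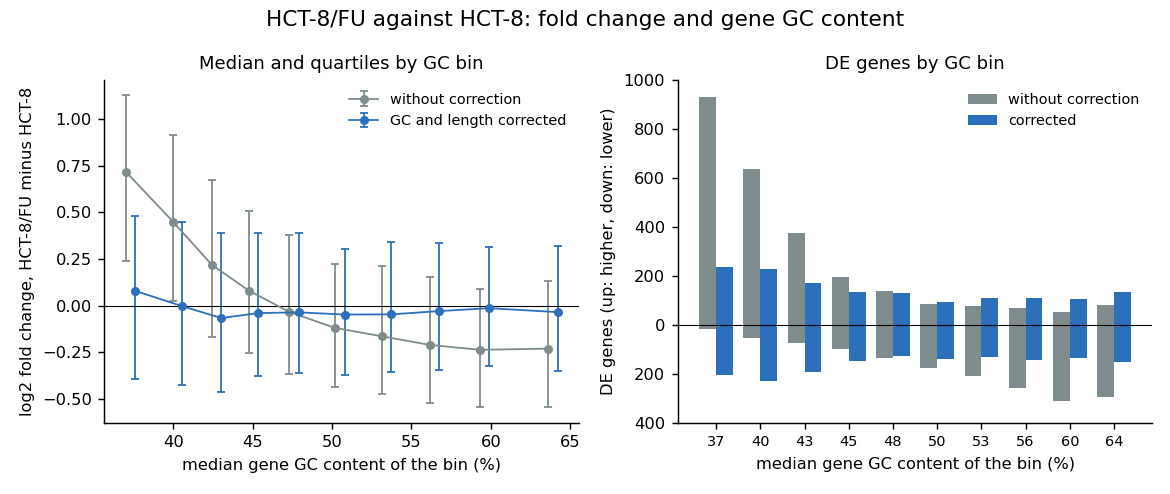
Median log2 fold change (HCT-8/FU minus HCT-8) with quartiles (left) and numbers of DE genes, higher upward and lower downward (right), in 10 equal bins of gene GC content (x axis, median GC in percent), without correction (grey) and with the GC and length correction (blue). The uncorrected median falls from 0.72 in the lowest GC bin to −0.23 in the highest, and the corrected medians stay near 0.

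Gene lists were then read with both fits side by side. The lists that moved furthest kept their direction with the correction: mitosis, replication and homologous recombination genes were higher in HCT-8/FU, and integrated stress response and ER chaperone genes were lower. Over all genes tested, the median log2 fold change was 0.0082 without and −0.027 with the correction. List counts stand against 13.2% higher and 8.12% lower over all genes without correction, and 7.27% and 8.06% with it.

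**Figure D2:**
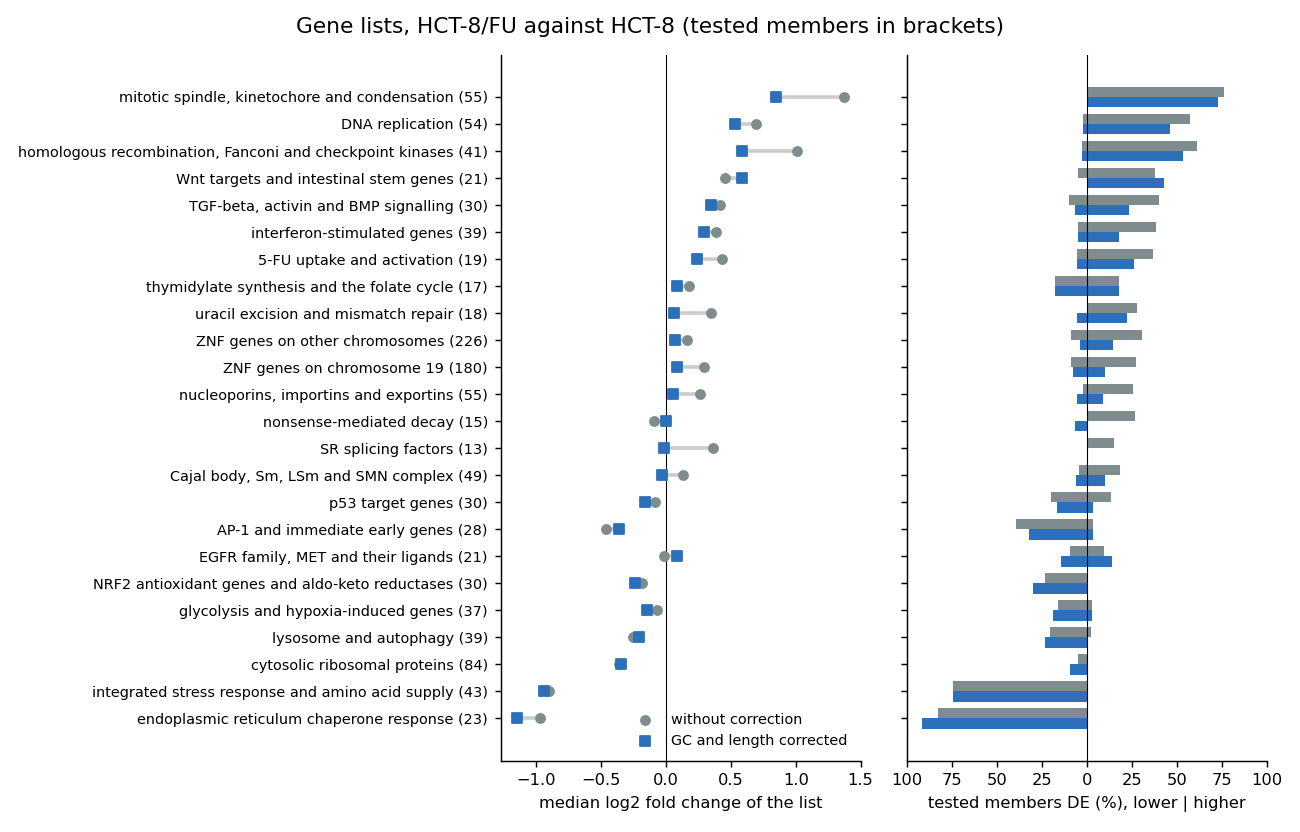
Median log2 fold change of the gene lists described (left; grey circle without and blue square with the GC and length correction) and the percent of their tested members DE (right; lower to the left, higher to the right, same colours), with the number of tested members in brackets. Mitosis, replication and repair lists stand to the right and the stress and ER lists to the left in both fits, while splicing, nuclear transport and zinc finger lists move toward 0 with the correction.

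DNA replication genes were higher in HCT-8/FU as a group. Of 54 members tested, 31 were higher and 1 was lower without correction, 25 and 1 with it, and 22 were higher both ways, with list medians of 0.69 and 0.53. PCNA, the sliding clamp of the replicative polymerases, measured 69.6 and 63.1 CPM in HCT-8 and 141 and 157 CPM in HCT-8/FU, a log2 fold change of 1.17 (standard error 0.08, edgeR adjusted p = 9.6e-08) and of 1.07 with correction. CLSPN, which carries the checkpoint signal from ATR to CHEK1 at stalled forks, measured 9.74 and 11.9 CPM against 39.5 and 41.5 CPM. Both HCT-8/FU libraries lay above every HCT-8 library for CLSPN, with log2 fold changes of 1.85 and 1.63. POLA1, the catalytic subunit of the primase polymerase, rose by 1.75 and 1.201, and CDC7, the kinase that fires origins, by 1.48 and 1.13.

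Most MCM genes were higher in HCT-8/FU. MCM6, a subunit of the replicative helicase, measured 50.6 and 48.1 CPM in HCT-8 and 100 and 128 CPM in HCT-8/FU, with log2 fold changes of 1.19 and 0.93. Of 10 genes named MCM that were tested, MCM2, MCM3, MCM4, MCM6, MCM8 and MCM10 were higher both ways, 60.0% of the family against 6.84% of all protein-coding genes tested with a GC value. The exception among replication genes was CDC6, which loads the helicase at origins: it measured 153 and 154 CPM in HCT-8 and 94.4 and 95.1 CPM in HCT-8/FU, and was the only member called lower (−0.70 and −0.89). Both HCT-8/FU values of CDC6 lay within the range of the 6 HCT-8 libraries, 91.2 to 154 CPM. The same held for MCM3, at 174 and 211 CPM in HCT-8/FU, with a range of 103 to 214 CPM. For MCM2, with a range of 81.1 to 149 CPM, HCT-8/FU replicate 1 lay within it (118 CPM) and replicate 2 above it (156 CPM). The number of replication genes called higher lay between 25 and 32 when 1 library was left out, and between 18 and 30 with correction, the lowest when replicate 2 of HCT-8/FU was left out and the highest when replicate 1 was.

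Mitosis genes had the highest list medians, 1.38 without and 0.85 with correction. Of 55 tested members, 42 were higher and 0 lower without correction, 40 and 0 with it, and 39 both ways, of which 33 lay above all 6 HCT-8 libraries. MKI67, which coats mitotic chromosomes and marks cycling cells, measured 86.0 and 84.2 CPM in HCT-8 and 356 and 397 CPM in HCT-8/FU, a log2 fold change of 2.14 (standard error 0.14, edgeR adjusted p = 3.3e-08). TOP2A, the topoisomerase that untangles sister chromatids, measured 84.9 and 78.2 CPM against 402 and 393 CPM. The groups were far apart for both genes, and the corrected log2 fold changes of MKI67 and TOP2A were 2.105 and 1.76. CENPF, a kinetochore protein, rose by 2.24 and 1.72, and the spindle motor KIF15 by 2.17 and 1.80. CDK1, the kinase that drives entry into mitosis, rose by 1.51 and 0.83.

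Several regulators of mitotic exit and entry did not pass the fold threshold. CCNB1, the cyclin of CDK1, measured 40.3 and 40.3 CPM in HCT-8 and 50.9 and 62.3 CPM in HCT-8/FU, with log2 fold changes of 0.47 and 0.26. PLK1, a mitotic kinase, and CDC20, which activates the anaphase-promoting complex, each had log2 fold changes of 0.34 and 0.57, below the threshold in both fits. In the conditioned-medium libraries, MKI67 was at 119 and 78.8 CPM in HCT-8 cells in medium of HCT-8, the second below both unconditioned HCT-8 libraries, and at 237 and 237 CPM in medium of HCT-8/FU.

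Homologous recombination, Fanconi and checkpoint kinase genes were also higher. Of 41 tested members, 25 were higher and 1 lower without correction, 22 and 1 with it, and 21 were higher both ways, with medians of 1.01 and 0.58. BRIP1, the helicase partner of BRCA1, measured 6.06 and 4.79 CPM in HCT-8 and 22.1 and 16.7 CPM in HCT-8/FU, with log2 fold changes of 1.94 and 1.27. BLM, the helicase that dissolves recombination intermediates, rose by 1.84 and 1.48. ATR, the kinase that answers stalled forks, rose by 1.48 and 0.71, ATM, the kinase of double-strand breaks, by 1.29 and 0.65, and CHEK1 by 1.03 and 0.72. FANCE was the 1 member lower without correction (−0.74), and its call was lost with it (−0.57).

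Among genes that take up and activate 5-FU, the response was mixed. Of 19 tested members, 7 were higher and 1 lower without correction and 5 and 1 with it, with 4 higher and 1 lower both ways. UPP1, uridine phosphorylase, which joins ribose to 5-FU, measured 44.2 and 48.5 CPM in HCT-8 and 20.7 and 18.6 CPM in HCT-8/FU, a log2 fold change of −1.22 (standard error 0.17, edgeR adjusted p = 4.1e-05) and of −1.12 with correction. Over the 6 HCT-8 libraries UPP1 ranged from 19.8 to 48.5 CPM, so HCT-8/FU replicate 1 lay within that range. UMPS, whose orotate phosphoribosyltransferase activity makes FUMP directly, measured 31.5 and 27.3 CPM against 29.4 and 31.3 CPM. The UMPS groups overlapped (0.06, standard error 0.13), as did those of the nucleoside transporter SLC29A1, at 41.6 and 36.6 against 39.2 and 41.1 CPM. TYMP, thymidine phosphorylase, lay at or below 1.56 CPM in all 4 libraries. RRM2, the small subunit of ribonucleotide reductase, measured 62.1 and 52.9 CPM against 147 and 206 CPM and rose by 1.62 and 1.63. TK1, thymidine kinase of the salvage route, rose by 0.70 and 0.93, and its levels of 73.4 and 85.1 CPM in HCT-8/FU lay within the range of the 6 HCT-8 libraries, 47.5 to 106 CPM.

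The enzymes that degrade 5-FU were close to absent in both lines. DPYD, the rate-limiting dehydrogenase, had 0 and 1 counts in the HCT-8 libraries and 2 and 1 in the HCT-8/FU libraries, DPYS had 0 in all 4, and UPB1 had 1, 9, 6 and 0. A difference in these genes was not detectable at this depth.

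In the thymidylate and folate list the target enzyme was higher while some genes of the mitochondrial arm were lower. TYMS, thymidylate synthase, measured 45.8 and 43.7 CPM in HCT-8 and 87.2 and 99.8 CPM in HCT-8/FU, with log2 fold changes of 1.06 and 1.16. An antisense gene overlaps 47.9% of its exons, and without a stated strand its reads cannot be told apart from those of TYMS. TYMS also stood at 76.2 to 89.1 CPM in the 4 conditioned-medium libraries, close to HCT-8/FU replicate 1. SHMT2, MTHFD2 and MTHFD1L, which make one-carbon units in mitochondria, were lower both ways. The other mitochondrial members MTHFD2L (0.17 and −0.48) and MTFMT (0.37 and 0.09) were not called in either fit. MTHFD2 measured 697 and 683 CPM in HCT-8 and 378 and 372 CPM in HCT-8/FU, with log2 fold changes of −0.88 and −1.17. Of the 17 tested members, 3 were higher and 3 lower in each fit, with 2 higher and 3 lower both ways. Both SHMT2 and MTHFD2 also belong to the integrated stress response list below.

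Uracil excision and mismatch repair genes rose in part. Of 18 tested members, 5 were higher and 0 lower without correction and 4 and 1 with it, with medians of 0.35 and 0.06, and 4 were higher both ways, among them UNG, MLH3 and EXO1. UNG, the glycosylase that removes uracil and 5-FU from DNA, measured 28.0 and 35.8 CPM in HCT-8 and 57.7 and 59.2 CPM in HCT-8/FU, with log2 fold changes of 0.83 and 0.91. EXO1, the exonuclease of mismatch repair, rose by 1.44 and 1.298. DUT, which destroys dUTP, had log2 fold changes of 0.76 and 0.55, the second under the fold threshold.

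**Figure D3:**
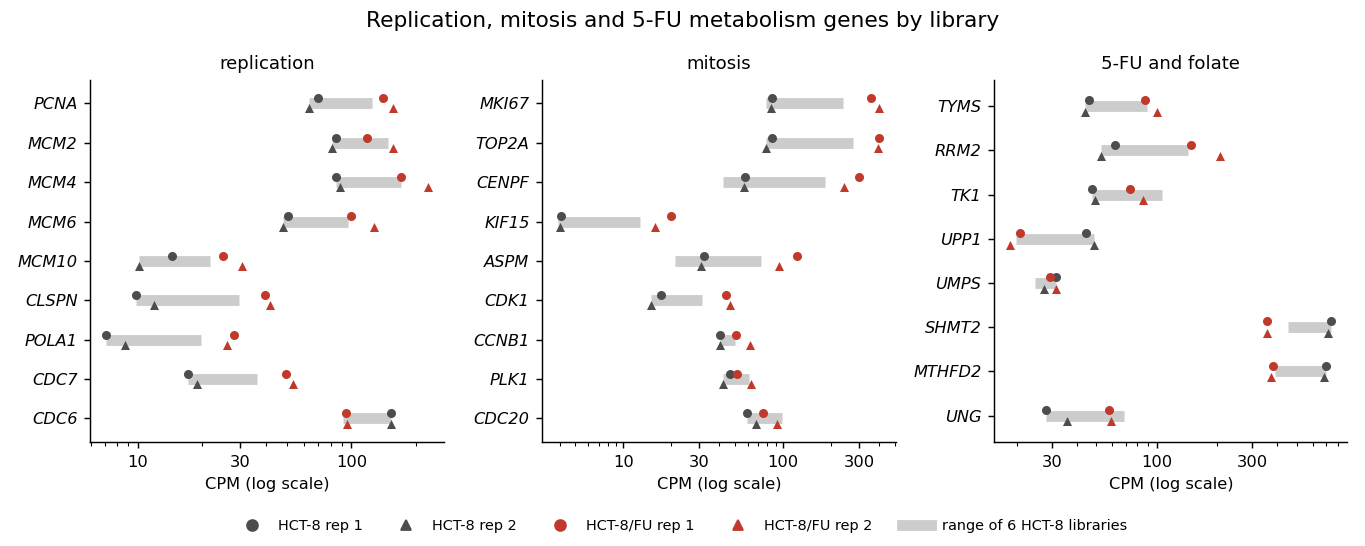
CPM (log scale) of replication, mitosis, and 5-FU and folate genes in the 2 HCT-8 libraries (grey points) and the 2 HCT-8/FU libraries (red points); circles are replicate 1, triangles replicate 2, and grey bars span all 6 HCT-8 libraries. Most replication and mitosis genes sit right of the grey bars in HCT-8/FU, CDC6, UPP1, SHMT2 and MTHFD2 sit at their left end or beyond, and UMPS overlaps.

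Integrated stress response genes were lower in HCT-8/FU. Of 43 tested members, 0 were higher and 32 lower in each fit, 30 were lower both ways, and the list medians were −0.90 and −0.94. Of the 30 genes, 27 lay below all 6 HCT-8 libraries. ATF4, the central transcription factor, measured 1130 and 1104 CPM in HCT-8 and 623 and 594 CPM in HCT-8/FU, with log2 fold changes of −0.88 and −0.66. DDIT3 (CHOP), a factor that ATF4 turns on under lasting stress, measured 212 and 205 CPM against 46.8 and 36.1 CPM. Its log2 fold changes were −2.29 and −2.28, with an antisense gene over 31.6% of its exons. TRIB3, a pseudokinase that damps the pathway, measured 828 and 887 CPM in HCT-8 and 212 and 188 CPM in HCT-8/FU, with log2 fold changes of −2.10 (standard error 0.08, edgeR adjusted p = 5.0e-10) and −1.86.

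Genes of several branches of this response were lower, with exceptions among their members. PPP1R15A, which directs removal of the phosphate from eIF2alpha, measured 617 and 614 CPM against 153 and 140 CPM (−2.07 and −1.86). ASNS, asparagine synthetase, measured 548 and 503 CPM in HCT-8 and 218 and 220 CPM in HCT-8/FU, with log2 fold changes of −1.26 and −1.47. The transfer RNA synthetase genes WARS1 (−1.61 and −1.54), SARS1 (−1.05 and −0.98), YARS1 (−1.04 and −1.04) and GARS1 (−0.86 and −1.46) were lower both ways, whereas TARS1, NARS1 and EPRS1 were not called in either fit. SLC7A11, the cystine importer, measured 247 and 238 CPM against 297 and 272 CPM and was not called in either fit (0.23 and −0.50).

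ER chaperone and ER-associated degradation genes were lower as well. Of 23 tested members, 0 were higher and 19 lower without correction, 0 and 21 with it, and all 19 were lower both ways, with medians of −0.97 and −1.15. HSPA5 (BiP), the main chaperone of the ER, measured 12050 and 11478 CPM in HCT-8 and 3233 and 2957 CPM in HCT-8/FU, a log2 fold change of −1.93 (standard error 0.06, edgeR adjusted p = 1.7e-10) and of −2.10 with correction. HYOU1, its exchange factor, measured 4215 and 3980 CPM against 1382 and 1288 CPM. HERPUD1 (−1.37 and −1.64) and SYVN1 (−1.49 and −1.29), which act in degradation of misfolded proteins, and XBP1 (−0.91 and −0.94), a factor of the unfolded protein response, were lower both ways. HSP90B1 measured 5439 and 4853 CPM in HCT-8 and 4392 and 3957 CPM in HCT-8/FU, and was called only with correction (−0.30 and −0.80), as was SEL1L (−0.58 and −1.15). CANX and DNAJC3 were not called in either fit.

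Parental HCT-8 libraries in conditioned medium had lower levels of HSPA5, ATF3, DDIT3, TRIB3 and ASNS than those in unconditioned medium. HSPA5 lay at 5019 to 5468 CPM in the 4 conditioned-medium HCT-8 libraries, ATF3 at 11.7 to 17.7 CPM, and DDIT3 at 83.9 to 101 CPM. TRIB3 lay at 396 to 414 CPM there, and ASNS at 257 to 322 CPM. The unconditioned HCT-8 libraries were thus the highest of the 6 for these genes, and HCT-8/FU lay below all of them. ATF4 differed: its highest level over the 6 HCT-8 libraries, 1226 CPM, was in conditioned medium. What part the unconditioned medium had in the difference was not tested.

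Stress programmes beside these were lower in part. Of 30 NRF2 antioxidant genes, 0 were higher and 7 lower without correction and 0 and 9 with it. HMOX1, heme oxygenase, measured 53.6 and 54.0 CPM in HCT-8 and 14.3 and 11.4 CPM in HCT-8/FU (−2.01 and −1.81), and FTH1, the ferritin heavy chain, 6544 and 6083 against 2981 and 2956 CPM (−1.09 and −1.03). Autophagy genes WIPI1 (−2.31 and −2.25), GABARAPL1 (−1.35 and −1.29), MAP1LC3B (−1.31 and −1.17) and SQSTM1 (−1.05 and −0.86) were lower both ways. Their lysosome and autophagy list of 39 had 1 higher and 8 lower without correction, and 0 and 9 with it. The autophagy genes ATG5 (0.39 and −0.02), ATG12 (0.26 and −0.40), ATG7 (−0.28 and −0.27) and BECN1 (−0.13 and −0.18) were not called in either fit. Among 30 p53 target genes, 4 were higher (13.3%) and 6 lower without correction and 1 (3.33%) and 5 with it, so that the share higher without correction was near the 13.2% over all genes. GDF15, a stress cytokine, measured 1102 and 1207 CPM against 333 and 301 CPM (−1.86 and −1.64). CDKN1A, the p21 inhibitor, measured 225 and 241 CPM against 132 and 152 CPM, with log2 fold changes of −0.72 and −0.49, and MDM2 had 0.84 and 0.32, so that neither passed the fold threshold with correction.

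Immediate early genes were lower in part. Of 28 AP-1 and immediate early genes, 11 were lower and 1 higher without correction, and 9 and 1 with it, with medians of −0.46 and −0.36. EGR1, a factor induced by ERK signalling, measured 55.7 and 59.1 CPM in HCT-8 and 17.6 and 22.7 CPM in HCT-8/FU (−1.57 and −1.39). FOSB (−2.22 and −2.03), DUSP5 (−1.40 and −1.24), FOSL1 (−1.20 and −0.99) and JUN (−1.09 and −0.91) were lower both ways. MYC measured 244 and 242 CPM against 240 and 235 CPM and was not called (−0.03, standard error 0.08). AREG, an EGFR ligand, measured 155 and 152 CPM against 45.4 and 42.3 CPM (−1.79 and −2.08), and HBEGF was also lower (−1.33 and −1.27). They belong to a list of 21 EGFR family, MET and ligand genes that did not move 1 way: 2 were higher and 2 lower without correction and 3 and 3 with it, with medians of −0.02 and 0.08. MACC1, an activator of MET transcription (2.68 and 2.00), and the receptor IGF1R (0.59 and 0.60) were the members higher both ways. EGFR itself, at 332 and 322 against 275 and 262 CPM, was not called in either fit.

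**Figure D4:**
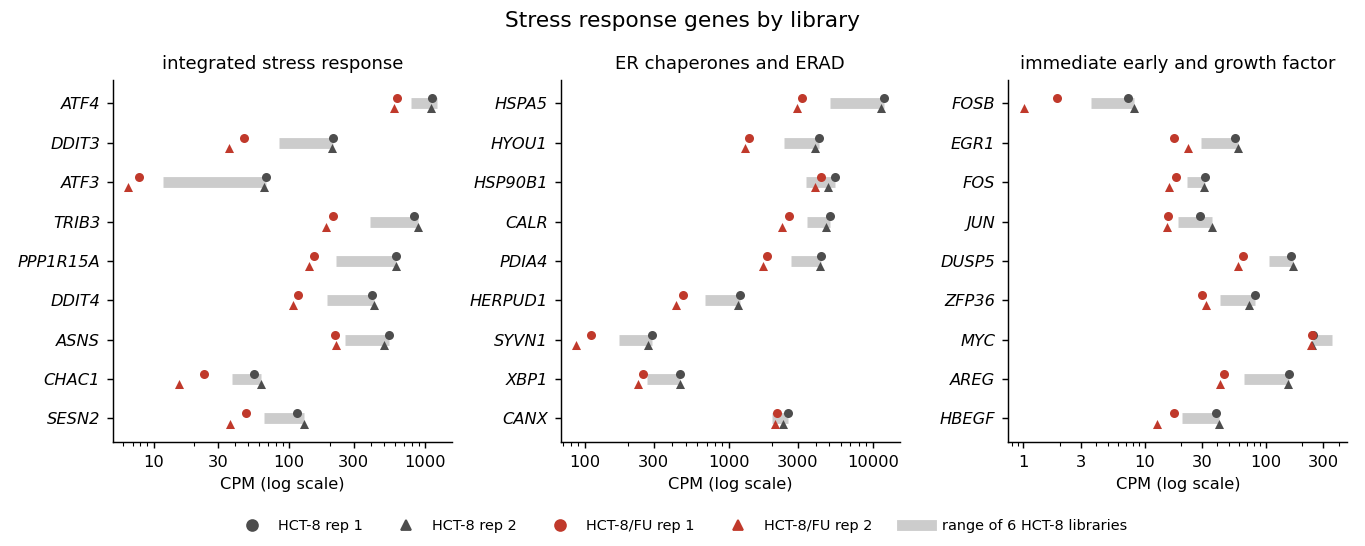
CPM (log scale) of integrated stress response genes, ER chaperone and degradation (ERAD) genes, and immediate early genes with EGFR ligands in the 2 HCT-8 libraries (grey) and the 2 HCT-8/FU libraries (red); circles are replicate 1, triangles replicate 2, and grey bars span all 6 HCT-8 libraries. The red points lie left of the grey bar for most genes, inside it for CANX and HSP90B1, and just beside it for MYC.

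Wnt target and intestinal stem cell genes were higher in part. Of 21 tested members, 8 were higher and 1 lower without correction, 9 and 0 with it, and 8 were higher both ways, with medians of 0.45 and 0.58. LGR5, the R-spondin receptor that marks crypt stem cells, measured 8.03 and 8.07 CPM in HCT-8 and 26.7 and 27.9 CPM in HCT-8/FU, with log2 fold changes of 1.75 (standard error 0.14, edgeR adjusted p = 2.2e-07) and 1.53. The feedback genes AXIN2 (0.85 and 1.04), NKD1 (0.81 and 0.82) and RNF43 (0.65 and 0.73) rose both ways. Of the 8 genes, 3 lay above all 6 HCT-8 libraries, and AXIN2, at 238 and 250 CPM, lay within their range of 134 to 267 CPM. The number called higher was 5 without HCT-8 replicate 2 in both fits, and 5 without HCT-8/FU replicate 1 in the uncorrected fit.

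BMP response genes rose together with these. ID1, an inhibitor of helix-loop-helix factors that BMP signalling induces, measured 23.3 and 20.8 CPM in HCT-8 and 61.9 and 72.2 CPM in HCT-8/FU (1.61 and 1.83). ID2 (1.28 and 1.40), ID3 (0.99 and 1.18), and the inhibitory SMAD6 (1.39 and 1.54) and SMAD7 (0.65 and 0.87) were higher both ways, as were the receptors BMPR2 (1.38 and 0.79) and TGFBR3 (1.32 and 1.04). The ligand BMP2 (−0.95 and −0.83) and the receptor ACVR1 (−0.62 and −0.86) were lower both ways. In the whole list of 30 TGF-beta, activin and BMP genes, 12 were higher and 3 lower without correction and 7 and 2 with it. TGFBR1 and SMAD5 were among those that lost the call (1.04 and 0.50, 1.06 and 0.55).

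Interferon-stimulated genes split. Of 39 tested members, 15 were higher and 2 lower without correction, and 7 and 2 with it. IFIT1, which binds foreign RNA caps, measured 6.06 and 5.14 CPM in HCT-8 and 15.9 and 16.5 CPM in HCT-8/FU (1.57 and 1.28), and OAS3, an RNA sensor, 30.4 and 30.4 against 67.5 and 84.1 CPM (1.29 and 1.25). CMPK2, DDX60, GBP3, IFIH1 and PARP14 were also higher both ways, and only 2 of the 7 genes lay above all 6 HCT-8 libraries. ISG20 (−1.27 and −1.18) and IRF7 (−0.88 and −0.74) were lower both ways. ISG15, at 51.6 and 59.7 against 55.4 and 57.5 CPM, and MX1 had overlapping groups.

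Intestinal differentiation genes did not move as 1 group: of 27 tested, 5 were higher and 2 lower without correction, and 6 and 2 with it. KRT20 (1.45 and 1.37), VIL1 (0.96 and 0.83), REG4 (1.10 and 1.09) and CDX1 (0.83 and 1.03) rose, and VIL1, a microvillus protein, measured 159 and 150 CPM against 299 and 300 CPM. The mucin genes were lower: of 11 tested, MUC2, MUC3A, MUC4, MUC5AC, MUC5B and MUC12 were lower both ways and 0 were higher, with family medians of −0.77 and −0.74. Over all protein-coding genes tested with a GC value, 6.12% were lower both ways. MUC5B, a gel-forming mucin, measured 266 and 284 CPM in HCT-8 and 122 and 159 CPM in HCT-8/FU (−0.99 and −0.88). Mucins share repeats, so reads of near-identical stretches are uncertain. In the list of 28 junction and mesenchymal transition genes, 7 were higher and 5 lower without correction and 3 and 5 with it. CLDN7 (−0.96 and −0.73), CLDN3 (−0.70 and −0.63) and the splicing regulator ESRP1 (−1.35 and −1.51) were lower both ways, as were CTNNA1 and VIM. DSP (0.94 and 0.83), CLDN2 (0.66 and 0.79) and FN1 (1.302 and 1.06) were higher both ways, while CDH1, E-cadherin, was not called in either fit (−0.40 and −0.35).

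Several lists of RNA-processing genes lost higher calls with the correction. SR splicing factors had 2 of 13 higher without and 0 with correction: SRSF10 measured 205 and 201 CPM in HCT-8 and 308 and 335 CPM in HCT-8/FU, with log2 fold changes of 0.66 and −0.02. Nonsense-mediated decay genes went from 4 of 15 higher to 0, and pseudouridine synthases from 4 of 13 to 0, with UPF2 at 0.87 and 0.50 and PUS7 at 0.76 and 0.44. Nucleoporins, importins and exportins went from 14 higher and 1 lower to 5 and 3 of 55. With correction, 9.09% of them were higher and 5.45% lower, near the 7.27% and 8.06% over all genes. NUP50 (1.68 and 1.48), XPO1 (1.39 and 0.87), IPO8 (1.04 and 0.61) and RANBP2 (1.24 and 0.59) were the members higher both ways. Among 49 Cajal body, Sm, LSm and SMN complex genes, 9 were higher and 2 lower without correction. With it, 5 (10.2%) were higher and 3 (6.12%) lower, also near the shares over all genes. NPAT (1.51 and 0.92) and CASP8AP2 (1.52 and 0.92), of the histone locus body, were higher both ways. Zinc finger genes of chromosome 19 went from 49 higher and 16 lower to 18 and 14 of 180 (10.0% and 7.78%), again near the shares over all genes.

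UHMK1, the kinase that gives the study its question, measured 119 and 135 CPM in HCT-8 and 285 and 286 CPM in HCT-8/FU, above the range of all 6 HCT-8 libraries (111 to 205 CPM). Its log2 fold change was 1.16 (standard error 0.08, edgeR adjusted p = 7.5e-08). With the correction it was 0.52 (standard error 0.10, edgeR adjusted p = 0.0014), past the FDR and under the fold threshold.

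Cytosolic ribosomal protein genes had medians of −0.37 and −0.35, with 4 of 84 lower without correction and 8 with it. The number lower was 17 when replicate 2 of HCT-8 was left out and 13 when replicate 2 of HCT-8/FU was, and with correction it was 20 and 21. Genes of oxidative phosphorylation coded in the nucleus had 1 higher and 2 lower of 79 without correction and 0 and 5 with it. Of 65 histone genes listed, 22 could be tested in these mRNA-captured libraries, and 0 of them were called in either direction in either fit.

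The leading genes were the 10 protein-coding genes with the largest change in each direction that were DE both ways, averaged at least 5 CPM and did not overlap between groups. CXCL5, FAM111B, MACC1, EHF, HPGD, ERCC6L, POLQ, ESCO2, RAB27B and TOP2A were the higher ones, with log2 fold changes from 3.61 to 2.29. HPGD, which breaks down prostaglandins, measured 14.0 and 11.03 CPM in HCT-8 and 61.5 and 65.9 CPM in HCT-8/FU (2.40 and 1.89). POLQ, the polymerase of microhomology-mediated end joining, measured 7.50 and 8.25 CPM against 40.6 and 42.3 CPM (2.36 and 1.94). EHF, an epithelial ETS factor, measured 2.90 and 2.78 CPM against 18.3 and 14.5 CPM (2.58 and 2.21). All 10 genes lay above all 6 HCT-8 libraries.

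KLHDC7B, ATF3, TRPV6, CMKLR2, OSCAR, WIPI1, PTPRH, DDIT3, TMIE and MEI1 were the lower ones, with log2 fold changes from −3.24 to −2.26. CMKLR2, a chemerin receptor, measured 37.9 and 43.0 CPM in HCT-8 and 6.31 and 4.35 CPM in HCT-8/FU (−2.82 and −3.18). WIPI1, an autophagosome protein, measured 160 and 147 CPM against 32.4 and 28.2 CPM, and antisense genes overlap 28.1% of its exons. Of these 10 genes, OSCAR did not lie below all 6 HCT-8 libraries. ATF3 and DDIT3 belong to the integrated stress response list.

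**Figure D5:**
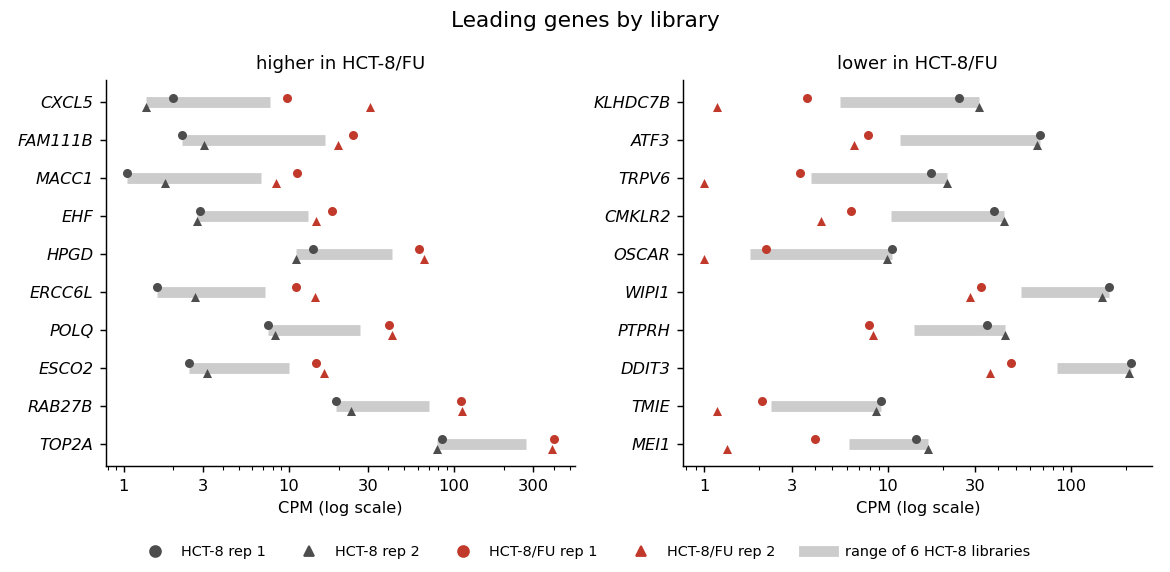
CPM (log scale) of the 10 leading higher genes (left) and 10 leading lower genes (right) in the 2 HCT-8 libraries (grey) and the 2 HCT-8/FU libraries (red); circles are replicate 1, triangles replicate 2, and grey bars span all 6 HCT-8 libraries. Red points lie outside the grey bars except for OSCAR, and CXCL5, at 9.67 and 30.9 CPM, shows the widest gap between HCT-8/FU replicates among the higher genes.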

How the data were processed

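Polyadenylated RNA of 8 samples was sequenced, 2 in each of 4 groups, and 4 libraries entered the comparison. The deposited files hold raw read counts per gene, which the authors made with HISAT2 and HTSeq 0.11.2 on GRCh38, and no source used here says whether counting used strand. The authors' own tables of fold changes and p-values were not used. The growth medium is named differently in the labels and in the study's methods. Records with no feature (35.9% to 49.6% of the 4 libraries) or not aligned (3.72% to 25.1%) were left out of library sizes.

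Counts were tested with edgeR 4.0.16 in R 4.3.3 (quasi-likelihood test, TMM scaling, filterByExpr, 4 group means over all 8 libraries, two-sided, Benjamini-Hochberg adjustment). CPM values are counts scaled to the TMM-adjusted library size. For the correction, deviations of each library from a gene's mean log2 CPM were fitted with natural splines of 5 degrees of freedom on GC content and on log2 length (GENCODE 44), and entered as offsets. Because these offsets follow gene composition, they also remove any change of the cells that follows it. The steps were tested on simulated counts. DESeq2 1.42.0, other filters and scalings, a replicate block and fits without each library were alternatives.

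Members and gene lists were chosen with earlier results of these data known. Named genes were the 10 leading protein-coding genes in each direction, UHMK1, and of each list its preset members and up to 4 DE members with the largest change; other list members, gene families and genes shown in conditioned medium were chosen after their values were seen. Same-numbered samples showed no pairing (correlation of their deviations −0.0862). This value cannot show a pairing across the numbers, and the poorly aligned libraries were HCT-8 replicate 1 and HCT-8/FU replicate 2. The median of a chi-square per gene between replicates was 1.35 in HCT-8 and 1.42 in HCT-8/FU, which is above counting noise. Each library was counted as 1 replicate. The chi-square cannot show whether the replicates were separate cultures, because library preparation and alignment can also add spread. No per-sample column was left unused. Some genes of the lists are not reported here. Promoters came from RefSeq (GRCh38.p14). Depth limits low genes, and intervals cover these libraries alone.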

Additional observations from a re-analysis of the deposited data

How the results depend on the processing

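Without the fold threshold, 7442 genes passed the FDR (3770 higher and 3672 lower), and 5611 with the GC and length correction. The number of higher genes, 2677, became 1444 with the GC and length correction, 1515 with GC alone, and 1389 with the replicate block and the correction together. Leaving out 1 library gave 3701 to 4130 DE genes, 2081 to 2530 higher and 1600 to 1691 lower, and 2533 to 3039 DE genes with the correction, whose share of higher genes was 36.8% without HCT-8 replicate 2, 39.1% without HCT-8/FU replicate 2, 50.1% without HCT-8 replicate 1 and 51.5% without HCT-8/FU replicate 1, against 47.4%. Without both poorly aligned libraries, 961 were higher and 1416 lower with the correction; this was chosen after seeing the data. The replicate block gave 2580 higher and 1600 lower genes, and over the 4 libraries alone 2515 and 1512, against 2740 and 1586 with crossed numbers. Of 211 named genes called, 179 kept the call without each library in turn and 164 with the correction.

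For 5 named genes the sign of the log2 fold change turned under an alternative, and 0 genes were DE in opposite directions with and without the correction. SRSF10 was at −0.0188 with the correction, −0.0187 with the block added, −0.0139 without HCT-8 replicate 2, −0.11 without HCT-8/FU replicate 2 and −0.11 without both poorly aligned libraries. MRPL50 was at −0.0138, −0.0458 with GC alone, −0.0227 with the block, and −0.12, −0.18 and −0.11 under the same omissions. STARD4 was at −0.0277, −0.0486 with GC alone, −0.0498 with the block, −0.0116 without HCT-8 replicate 1 and −0.13 without HCT-8/FU replicate 1. NDUFA5 was at −0.0039 with the block and correction, −0.0503 without HCT-8 replicate 2 and −0.0329 without HCT-8/FU replicate 2, and MAGOHB at −0.17 without HCT-8/FU replicate 2 and −0.18 without both. The cause was not tested.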

Other observations

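Some genes of the secretory pathway were lower beside the ER chaperones. Of 26 genes named SEC, 9 were lower and 0 higher both ways (34.6%, against 6.12% of 13763 protein-coding genes), with medians of −0.26 and −0.40. SEC61A1, the channel through which proteins enter the ER, measured 989 and 997 CPM in HCT-8 and 488 and 474 CPM in HCT-8/FU (−1.05 and −1.05), and SEC24D, a coat protein of ER exit vesicles, 207 and 202 against 95.8 and 84.2 CPM (−1.17 and −1.58). Of 34 kinesin genes, 11 were higher and 1 lower both ways. Several of the higher ones, among them KIF11, KIF15 and KIF23, were already counted in the mitosis list. Of 38 genes named CEP, which serve centrosomes, 22 were higher without correction and 11 both ways. Over the 13763 protein-coding genes, 6.84% were higher and 6.12% lower both ways. These families were chosen after their values were seen, among 178 families.

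Along the genome, 539 windows of 25 neighbouring protein-coding genes had corrected medians from −0.71 to 0.51. One window passed 0.58 in size, chr12:57010000-57750219, with medians of −0.74 and −0.71, and it holds the integrated stress response genes SHMT2, INHBE, MARS1 and DDIT3. On chromosome 13, 29 of 214 genes were higher both ways (13.6%, against 6.85%), and on chromosome 22, 46 of 367 were lower (12.5%, against 6.11%).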
